A study of Mus musculus with 18 samples.

Results

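H3K9me2 summits that lay more than 1000 bp from every curated RefSeq transcript start were examined in mouse liver. A summit is the position of highest enrichment in a ChIP-seq peak, and the start positions were those of the RefSeq annotation of mm10 (GRCm38.p6). By this rule 5024 of the 32372 H3K9me2 summits of 4 libraries were away from starts (here called distal), of which 2551 lay within transcripts and 2473 were intergenic. The distal summits numbered 613 of 7690 in WT fasted 1, 2223 of 13456 in WT fasted 2, 1232 of 1297 in WT refed 1 and 956 of 9929 in WT refed 2.

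The study compared chromatin and RNA in livers of fasted and refed c57bl/6j mice, in relation to the H3K9 demethylase JMJD1C. H3K9me2 was profiled only in WT mice, in 2 livers of mice fasted overnight and in 2 of mice then given a high carbohydrate diet for 6 h, each with its own input. Accessible DNA was mapped by ATAC-seq in 6 livers (2 in each WT state, and 2 from refed JMJD1C-LKO mice). RNA-seq covered refed mice only, with 2 samples of pooled RNA for each genotype. JMJD1C-LKO mice carry a floxed Jmjd1c gene deleted with Cre driven by the albumin promoter, which is active in hepatocytes. All groups had chow for 6 to 8 weeks before, and the methods give an age of 12 weeks unless specified. The feeding state of each library came from its title, and the general methods give a longer refeeding time than the labels.

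Dimethylation of histone H3 at lysine 9 is laid down mainly by the EHMT1 and EHMT2 methyltransferases and removed by demethylases of the JMJD1 (KDM3) family. It is known mostly from broad domains of silent chromatin in gene-poor regions, over repeats and over genes that a tissue does not use, and at promoters it goes with low transcription. Satellite repeats are known for H3K9 methylation, mostly in its trimethyl form.

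**Figure D1:**
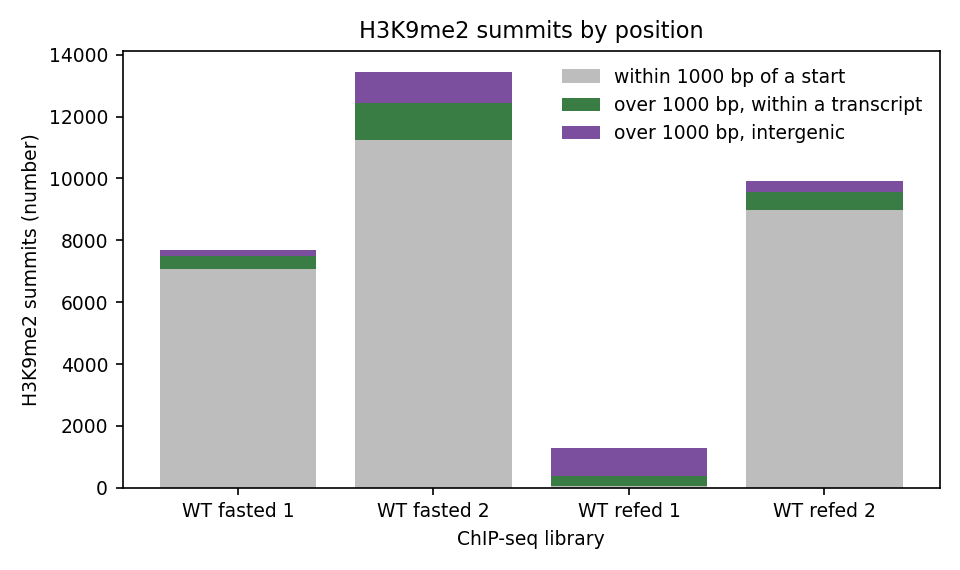
Number of H3K9me2 summits in each ChIP-seq library (stacked bars, starting at 0), split into summits within 1000 bp of a RefSeq transcript start and those farther away within a transcript or between genes. Distal summits made up 7.97%, 16.5% and 9.63% of WT fasted 1, WT fasted 2 and WT refed 2, and 94.99% of WT refed 1, which held the fewest summits.

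WT refed 1 stood apart from the other 3 libraries. Its distal summits were 94.99% of its list (95% Wilson interval 93.7% to 96.0%), against 7.97% (7.39% to 8.60%) in WT fasted 1, 16.5% (15.9% to 17.2%) in WT fasted 2 and 9.63% (9.06% to 10.2%) in WT refed 2. By state the mean was 12.2% ± 6.05 (SD, n = 2) in fasted and 52.3% ± 60.4 (SD, n = 2) in refed livers, so the refed mean describes neither liver. Nothing in the files checks independently that the list labelled WT refed 1 is the refed H3K9me2 library, so each value of WT refed 1 and each refed mean rests on that label. With 2 livers in each state, an exact two-sided permutation test cannot give a p below 0.3333, and no test of feeding was made. Without WT refed 1 a single refed liver was left, at 9.63%, between the values of both fasted livers. Intervals cover counting error only, and the deposited lists hold no read counts, so the depth behind each list is unknown.

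Sequences under strong summits are given for both kinds of list. The following 101-base stretches, plus strand of mm10 and centred on the summit, are 4 of the sites that ranked highest among those found in WT fasted 1, WT fasted 2 and WT refed 2, with each CpG (the letters CG) in capitals:
Ywhaz intron, chr15:36793295-36793395: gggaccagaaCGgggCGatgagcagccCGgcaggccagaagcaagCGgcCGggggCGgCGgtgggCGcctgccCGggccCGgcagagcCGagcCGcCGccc
Tns1 intron, chr1:74068428-74068528: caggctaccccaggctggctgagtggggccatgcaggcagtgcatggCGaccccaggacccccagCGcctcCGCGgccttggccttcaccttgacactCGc
Upstream of Rabepk, chr2:34802550-34802650: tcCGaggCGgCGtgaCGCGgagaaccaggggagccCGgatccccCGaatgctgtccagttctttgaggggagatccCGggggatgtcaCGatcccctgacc
Upstream of Hsd17b12, chr2:94178630-94178730: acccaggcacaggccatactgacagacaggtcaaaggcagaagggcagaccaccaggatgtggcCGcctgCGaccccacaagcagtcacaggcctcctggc
The Ywhaz stretch held 13 CpGs, the Rabepk stretch 9, the Tns1 stretch 5 and the Hsd17b12 stretch 2. The next 3 stretches are high-scoring distal sites of 3 kinds in WT refed 1, again with CpGs in capitals, and their scores (the −log10 of the q-value at the summit) were 101, 101 and 51.6:
Mitochondrial-like, chr1:24615830-24615930: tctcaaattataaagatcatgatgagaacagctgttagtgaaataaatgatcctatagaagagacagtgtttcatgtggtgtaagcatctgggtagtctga
Repeat-masked, chr2:98666712-98666812: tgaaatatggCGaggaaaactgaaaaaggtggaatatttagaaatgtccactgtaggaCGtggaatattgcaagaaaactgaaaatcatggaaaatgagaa
Chromosome 6 cluster, chr6:47772186-47772286: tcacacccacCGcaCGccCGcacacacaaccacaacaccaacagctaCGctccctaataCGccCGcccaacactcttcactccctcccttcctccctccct
These stretches held 0, 2 and 6 CpGs, so single stretches of both sets overlap in CpG number. The mitochondrial-like site shares a run of at least 25 bases with the mitochondrial genome, 97.01% of the bases near the repeat-masked site are masked, and the central 31 bases of the cluster site occur at 16 places in the assembly.

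In WT fasted 1, WT fasted 2 and WT refed 2 the distal summits were rich in GC and CpG and poor in repeats. Their median GC content within 100 bp was 51.7%, 51.2% and 51.7%, above the 41.3% of windows placed every 2000 bp along the genome outside starts, and 43.8% in WT refed 1. CpG island-like sequence (GC of at least 50% and an observed over expected CpG ratio of at least 0.6) lay under 27.9% (24.5% to 31.6%), 24.97% (23.2% to 26.8%) and 23.95% (21.4% to 26.8%) of the distal summits of these 3 libraries, 6.49% (5.25% to 8.01%) of those of WT refed 1 and 0.588% of the genome windows. Summits near starts were island-like in 75.7%, 70.5% and 70.3% of cases in the same 3 libraries, so their distal summits lay between starts and the rest of the genome. Intergenic distal summits were island-like more often than those within transcripts in each of the 3 libraries, at 40.5% against 22.2% in WT fasted 1, 33.6% against 17.7% in WT fasted 2 and 30.5% against 20.1% in WT refed 2. The intervals of the paired shares did not overlap in any of the 3 libraries.

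Repeats set WT refed 1 apart more sharply. Over 50% of the bases within 100 bp were repeat-masked at 75.2% (72.7% to 77.5%) of its distal summits, against 5.06%, 6.03% and 5.96% in WT fasted 1, WT fasted 2 and WT refed 2 and 30.8% of the genome windows. The central 31 bases occurred more than once in the assembly at 97.3% (96.3% to 98.1%) of its distal summits, with a median above 100 places, against 5.38%, 8.55% and 4.81% in the other 3 libraries. The methods state that only reads with a unique genome location were kept for the ChIP-seq. How that statement bears on these sites was not tested.

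**Figure D2:**
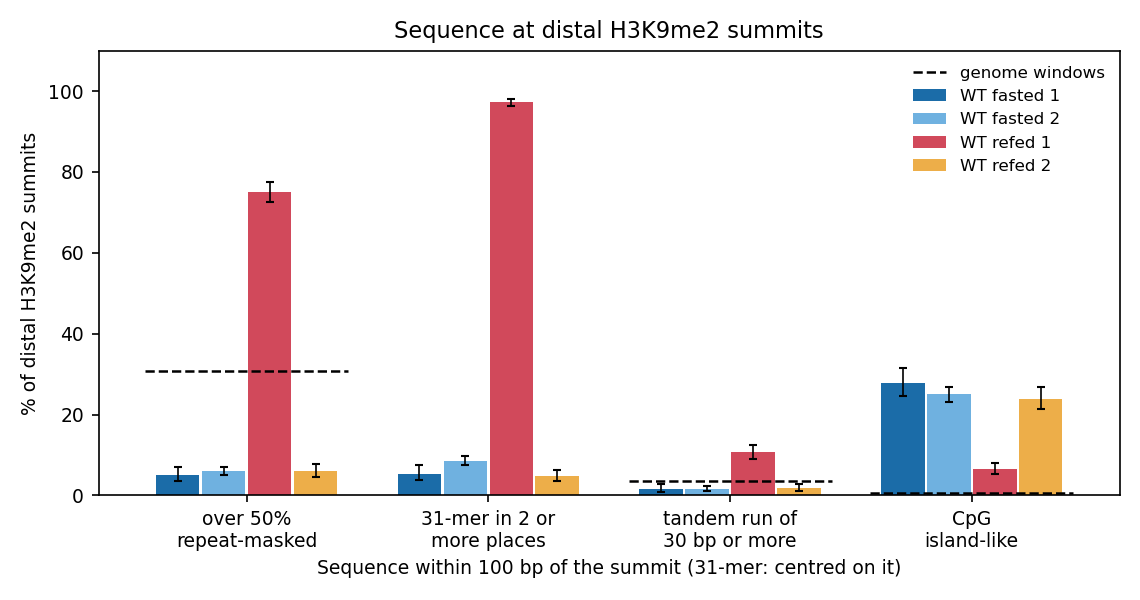
Percent of the distal H3K9me2 summits of each library (bars, with 95% Wilson intervals) that carry each kind of sequence, with the share of genome windows outside starts as a dashed line where it was computed. WT refed 1 is at 75.2% for repeats and 97.3% for 31-mers found at several places, and the other 3 libraries are at 23.95% to 27.9% for CpG island-like sequence.

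Tandem runs of at least 30 bp with units of up to 6 bp lay at 10.6% of the 1232 distal summits of WT refed 1, against 1.47% to 1.78% in the other 3 libraries and 3.63% of genome windows.

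Of the distal summits of WT refed 1, 17 resembled the mitochondrial genome, with a median score of 68.8, and the other 3 libraries had none. The highest score in this library, 101, was shared by 6 summits, all distal, of which 2 were mitochondrial-like and 4 repeat-masked. These 6 included an intron of Myo3a, an unconventional myosin gene, on chromosome 2, and a repeat-masked site 1199105 bp from the nearest start, that of Lrrc4c. Of the 100 highest-scoring summits 97 were distal in WT refed 1, against 2 in WT fasted 1, 1 in WT fasted 2 and 3 in WT refed 2. Over all distal summits the median score was 3.70 in WT refed 1 and 8.45, 9.50 and 9.02 in WT fasted 1, WT fasted 2 and WT refed 2, where summits near starts had medians of 12.6, 37.4 and 16.2. Scores depend on depth, which is unknown here, so the levels of different libraries stand side by side with no test.

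Position relative to genes followed the same split. Distal summits lay within transcripts in 69.0% of cases in WT fasted 1, 54.4% in WT fasted 2 and 63.0% in WT refed 2, but in 25.7% in WT refed 1. Transcripts cover 38.8% of the bases outside starts. By state, the share was 61.7% ± 10.3 (SD, n = 2) in fasted and 44.4% ± 26.3 (SD, n = 2) in refed livers. Most summits within transcripts were intronic, at 83.2%, 84.7%, 94.6% and 83.4% in WT fasted 1, WT fasted 2, WT refed 1 and WT refed 2, and coding exons held 11.1%, 10.2%, 3.15% and 10.8%.

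In the other 3 libraries the summits within transcripts crowded towards the starts. Their median distance to the nearest start was 1798 bp in WT fasted 1, 3587 bp in WT fasted 2 and 1989 bp in WT refed 2, against 28476 bp in WT refed 1. Summits at 1001 to 2000 bp made up 56.0%, 30.02% and 50% of them, and 3.79% in WT refed 1. The first 20% of the length of the host transcript held 55.6%, 42.2% and 53.5% of them, and 15.1% in WT refed 1. The host gene also had a summit near its start in the same library in 62.6%, 67.2% and 66.8% of cases, and in 1.58% in WT refed 1, whereas 25.6%, 38.01%, 31.4% and 0.222% of all annotated genes had such a summit. Intergenic summits lay farther out, with medians of 13540 bp, 14792 bp and 14539 bp in WT fasted 1, WT fasted 2 and WT refed 2 and 51779 bp in WT refed 1, where 35.2% were more than 100 kb from any start.

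**Figure D3:**
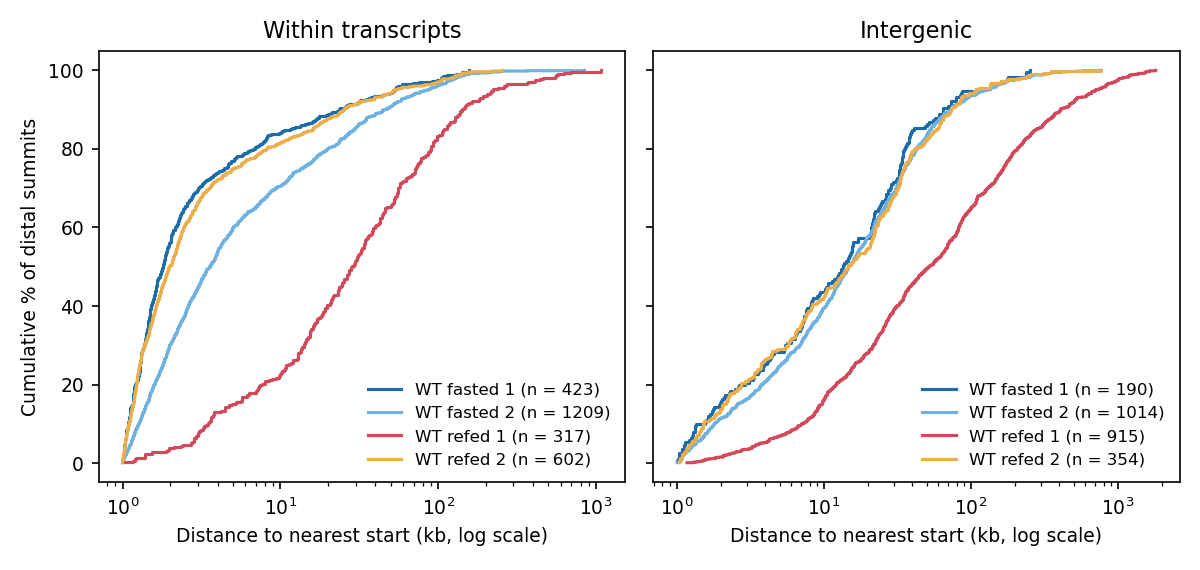
Cumulative percent of distal H3K9me2 summits by distance to the nearest RefSeq transcript start (kb, log scale), for summits within transcripts and intergenic summits, one line per library. The curves of WT fasted 1 and WT refed 2 run close together, WT fasted 2 lies farther out within transcripts, and WT refed 1 lies farthest out in both panels.

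Many distal summits were near a start in another annotation. A predicted RefSeq or a GENCODE M21 start lay within 1000 bp of 56.6% (52.7% to 60.5%) of the distal summits in WT fasted 1, 43.3% (41.3% to 45.4%) in WT fasted 2 and 54.8% (51.6% to 57.9%) in WT refed 2, but 8.12% (6.72% to 9.78%) in WT refed 1. In the first 3 libraries these summits had higher median scores than the remaining distal summits, at 9.69 against 6.48, 13.2 against 8.36 and 10.7 against 7.55. They were island-like in 38.6%, 35.9% and 31.5% of cases, and the distal summits with no start in any of the annotations in 13.9%, 16.6% and 14.8%. The latter were thus still island-like far more often than genome windows, and 7.18% to 7.89% of them were in repeats. The E-box CACGTG, the binding motif of USF factors (the motif reads alike on both strands), lay within 100 bp of 2.12%, 2.56%, 2.11% and 2.09% of distal summits in WT fasted 1, WT fasted 2, WT refed 1 and WT refed 2, against 1.90% of genome windows. The Wilson interval of WT fasted 2 (1.98% to 3.31%) lay just above the share of genome windows, and those of the other libraries included it.

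Sharing between livers was next measured as the percent of distal summits with any summit of the other library within 200 bp. Of the distal summits of WT fasted 1, 52.5% (48.6% to 56.5%) were shared with WT fasted 2 and 51.5% (47.6% to 55.5%) with WT refed 2, so the liver of the other state was matched as often as the liver of the same state. In the longer list of WT fasted 2, 14.4% were shared with WT fasted 1 and 23.7% with WT refed 2. For WT refed 2 the values were 33.2% with WT fasted 1 and 55.4% with WT fasted 2. When positions were moved by 10000 bp, 0.225% to 0.653% of these distal summits were matched. Intergenic summits were shared more than those within transcripts in most directions, at 78.9% against 40.7% from WT fasted 1 to WT fasted 2, 72.6% against 42.1% from WT fasted 1 to WT refed 2 and 79.1% against 41.5% from WT refed 2 to WT fasted 2. The gap was smaller from WT refed 2 to WT fasted 1 (38.98% against 29.7%) and from WT fasted 2 to WT refed 2 (27.2% against 20.8%). From WT fasted 2 to WT fasted 1 the intervals of 14.6% (12.6% to 16.9%) and 14.1% (12.3% to 16.2%) overlapped. Near starts the shares were 85.7% from WT fasted 1 to WT fasted 2 and 53.98% in the reverse direction. They were 83.98% from WT fasted 1 to WT refed 2 and 66.2% in the reverse direction. From WT refed 2 to WT fasted 2 the near-start share was 83.6%, and from WT fasted 2 to WT refed 2 it was 66.8%.

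None of the 613 distal summits of WT fasted 1 and none of the 956 of WT refed 2 was within 200 bp of a WT refed 1 summit, which allows up to 0.623% and 0.400% by the Wilson interval. WT refed 1 thus shared 0 distal sites with the other refed liver. It shared 18 (1.46%, 0.926% to 2.30%) with WT fasted 2, of which 15 lay between 47 and 48 Mb of chromosome 6. That megabase held 66 distal summits in WT refed 1, 5.36% of its list and its densest window, and 15 in WT fasted 2, where it was also the densest. Of these 18 shared summits 16 were island-like, none was repeat-masked and 17 had a central 31-mer found at several places.

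**Figure D4:**
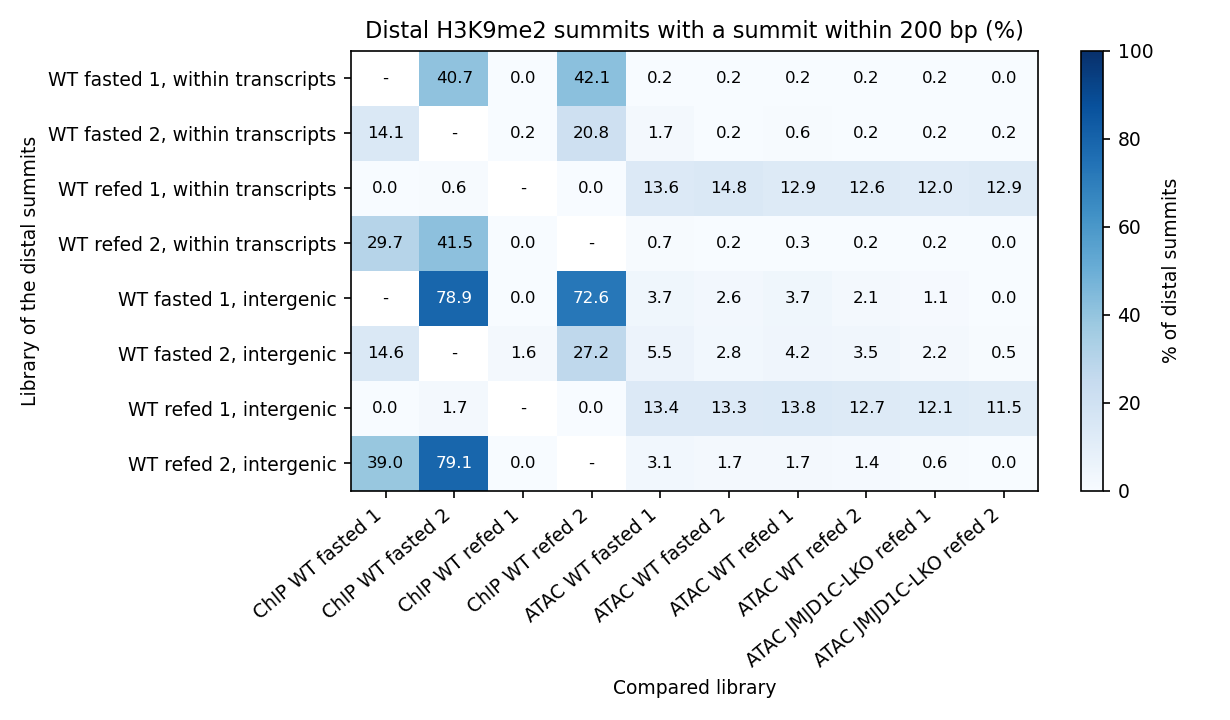
Percent of the distal H3K9me2 summits of each library (rows, within transcripts above and intergenic below) that have a summit of the library in the column within 200 bp, for the other H3K9me2 libraries and 6 ATAC-seq libraries. WT fasted 1, WT fasted 2 and WT refed 2 share 14.1% to 79.1% with each other and at most 5.52% with an ATAC-seq library, and WT refed 1 shares 11.5% to 14.8% with every ATAC-seq library.

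Overlap with ATAC-seq summits ran the other way. An ATAC-seq summit of the same state lay within 200 bp of 1.47% of distal summits in WT fasted 1, 3.73% in WT fasted 2 and 1.05% in WT refed 2, but 14.5% in WT refed 1. By state this was 2.60% ± 1.60 (SD, n = 2) and 7.79% ± 9.53 (SD, n = 2). With any of the 6 ATAC-seq libraries the shares were 2.28%, 5.17%, 2.09% and 18.8%. In WT refed 1, 231 distal summits had an ATAC-seq summit in at least 1 library and 120 had one in all 6, which include the 2 JMJD1C-LKO refed livers. The numbers with a summit in all 6 were 0, 5 and 0 in WT fasted 1, WT fasted 2 and WT refed 2. The 120 sites had a median score of 15.5, against 3.70 for the 1001 with no ATAC-seq summit. Of the 120 sites 81 were repeat-masked. Whether an ATAC-seq summit at repeat-masked or mitochondrial-like sites marks open DNA was not tested. Of the 17 mitochondrial-like sites 15 had an ATAC-seq summit and 14 had one in all 6 libraries. An ATAC-seq summit lay near 15.6% (13.4% to 18.03%) of the 926 repeat-masked sites and 28.4% (23.7% to 33.7%) of the 306 others, with intervals (counting error only) that did not overlap.

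The distal summits also differed by chromosome. Chromosome 19, which holds 2.18% of the bases outside starts, held 6.69%, 4.23% and 4.39% of the distal summits of WT fasted 1, WT fasted 2 and WT refed 2, and 1.30% of those of WT refed 1. Chromosome X, with 6.21% of the bases, held 1.31%, 2.07% and 2.41%, and 6.25% in WT refed 1. Chromosome Y had 0, 1 and 0 distal summits in the 3 libraries and 28 in WT refed 1. In WT refed 1 chromosomes 4 and 8 were the fullest for their size, with 11.04% and 10.2% of distal summits on 5.74% and 4.75% of the bases. The densest megabase on chromosome 8, from 20 to 21 Mb, held 44 summits, and that on chromosome 4, from 60 to 61 Mb, held 37.

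Distal summits of the 4 libraries joined into 4089 regions when summits within 200 bp were linked. Of these 3406 were found in 1 library, 435 in 2, 248 in 3 and 0 in all 4. The 248 regions were all in WT fasted 1, WT fasted 2 and WT refed 2, and 120 of them lay within transcripts and 128 between genes. A predicted RefSeq or GENCODE start lay within 1000 bp of 75.8% of the former and 70.3% of the latter. Island-like sequence was present at 36.7% and 46.1%, and 1 and 10 had an ATAC-seq summit in any library. The spread of summits in a region had a median of 86 bp and 87 bp. Scores ranked the regions in a related order, with Spearman's rho over 248 regions of 0.55 between both fasted livers, 0.42 between WT fasted 1 and WT refed 2 and 0.61 between WT fasted 2 and WT refed 2.

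The regions with the highest mean rank within transcripts were in Ywhaz, Tns1, Baz2a, Hmcn2, Serpinc1, Klf15, Fndc3a and Cidec. The region in the first listed gene, Ywhaz, which encodes the adaptor 14-3-3 zeta, lay in an intron 1193 bp from the start (chr15:36793265-36793345) and scored 38.9, 96.4 and 36.0 in WT fasted 1, WT fasted 2 and WT refed 2. In Tns1, the gene of the focal adhesion protein tensin 1, an intronic region 56070 bp from the curated start and 498 bp from a predicted one scored 34.5, 59.6 and 34.3. Baz2a encodes a subunit of a chromatin remodelling complex that silences ribosomal DNA, and its intronic region scored 30.6, 80.0 and 26.2. The region in Serpinc1, which encodes antithrombin, was 9167 bp from the curated start and 623 bp from a predicted start, with scores of 22.2, 61.7 and 39.1. Klf15, a transcription factor gene of fasting metabolism, held its region in a coding exon (24.999, 73.8 and 27.1), and Cidec, the gene of a lipid droplet protein, held its region in an intron (23.0, 60.7 and 28.9). The regions were chosen by their mean rank in these 3 libraries among regions without a WT refed 1 summit. Their high scores there and their absence from WT refed 1 therefore follow from the choice and are no further result. An ATAC-seq summit was near none of the 8.

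The 4 highest intergenic regions were 2688 bp upstream of Rabepk, 50277 bp downstream of the start of 1700029F12Rik, 20771 bp upstream of Hsd17b12 and 174840 bp from the start of 6820431F20Rik. The site upstream of Hsd17b12, a gene of fatty acid elongation, lay 235 bp from the GENCODE start of the non-coding Mir670hg and scored 26.5, 100.2 and 50.5 in WT fasted 1, WT fasted 2 and WT refed 2. The site upstream of Rabepk scored 29.5, 83.4 and 44.8. Of the 4 sites, that near 6820431F20Rik had an ATAC-seq summit, in 4 libraries. Of these 12 regions 9 had a predicted RefSeq or GENCODE start within 1000 bp.

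The highest-scoring distal summits of WT fasted 1, WT fasted 2 and WT refed 2 were these or other sites with few repeats, whereas those of WT refed 1 were the mitochondrial-like and repeat-masked sites given above. In WT fasted 1 they were in an intron of the adaptor gene Grb7 at 1055 bp from its start (score 46.6), upstream of the circadian gene Per1 at 3369 bp (45.8) and in Ywhaz. In WT fasted 2 they were 55333 bp from the start of 4930467E23Rik on chromosome 8 (112), upstream of Hsd17b12 and 8013 bp upstream of the microRNA gene Mirlet7a-1 (97.5). The chromosome 8 site lay 163 bp from the GENCODE start of the pseudogene Gm10060 and had an ATAC-seq summit in 5 libraries. The site upstream of Mirlet7a-1 lay 215 bp from the GENCODE start of the non-coding 6720427I07Rik. In WT refed 2 they were 1037 bp upstream of the liver microRNA gene Mir194-2 (56.4), upstream of Hsd17b12 and in an intron of Igfbp4 at 1538 bp (49.1), a gene of an insulin-like growth factor binding protein. The Grb7 and Igfbp4 summits were in 1 library each, whereas the Per1 site was in all 3. A predicted RefSeq start lay 404 bp from the Grb7 summit and 192 bp from the Per1 site. A GENCODE start lay 596 bp from the Igfbp4 summit, while the Mir194-2 summit had no start within 1000 bp in any of the annotations.

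The genes that held distal summits in WT fasted 1, WT fasted 2 and WT refed 2 were mostly expressed in liver. Host genes, those with a distal summit inside a transcript, numbered 387, 1017, 292 and 551 in WT fasted 1, WT fasted 2, WT refed 1 and WT refed 2. Their median level in the WT refed RNA-seq was 38.9, 13.2 and 22.3 TPM in the 3 libraries and 4.004 TPM in WT refed 1, against 4.95 TPM over all annotated genes in the table. Of the host genes 91.0%, 81.3%, 45.2% and 90.0% reached a mean of 1 TPM, against 41.5% of all annotated genes. Genes with a summit near the start had medians of 16.6, 11.5 and 14.3 TPM in WT fasted 1, WT fasted 2 and WT refed 2. Genes nearest to intergenic summits had medians of 14.6, 10.3, 3.37 and 11.98 TPM in the 4 libraries. Host genes were long, with median spans of 35.4, 39.2, 122.9 and 36.7 kb against 13.5 kb over all genes, and the part of length in these levels was not tested. RNA was measured in refed livers only, so levels beside the fasted summits come from other mice in the other state. In bulk tissue, fewer cells of a type and less RNA per cell cannot be told apart.

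**Figure D5:**
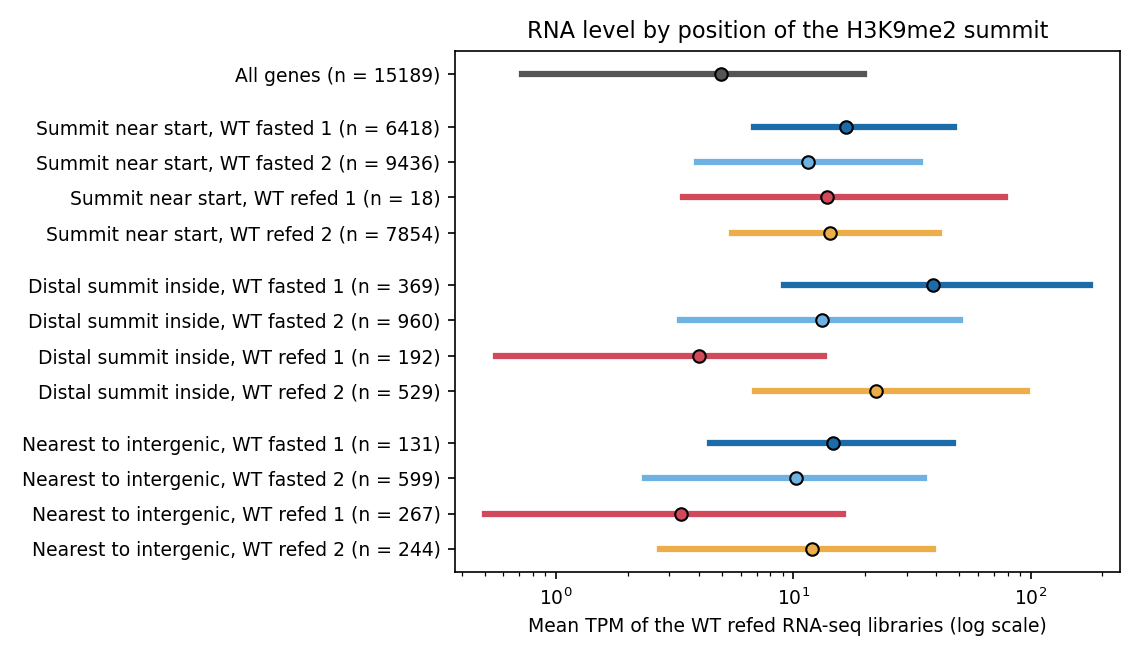
Median (points) and interquartile range (lines) of the mean TPM in 2 WT refed RNA-seq libraries, for all annotated genes, genes with a summit near the start, genes with a distal summit inside and genes nearest to an intergenic summit, with the number of genes in the RNA-seq table. Genes with a distal summit inside have medians of 38.9, 13.2 and 22.3 TPM in WT fasted 1, WT fasted 2 and WT refed 2 and 4.004 TPM in WT refed 1.

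Distal summits lay inside 241 genes in both fasted livers and inside 20 in both refed livers, 253 genes in all. The 20 genes of the refed livers held summits at different positions, since those livers shared no distal site, and had a median span of 157 kb. The genes with the most regions found in several libraries were Lncpint, a long non-coding RNA gene, with 4, and the chromatin remodeller gene Chd9, Klf15 and Rcl1 with 3 each. Arid5b, Cep85, Dnmbp and Exph5 were among the genes with 2.

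Of the metabolic lists, gluconeogenic genes had 5, 4, 1 and 5 of 14 members with a distal summit inside in WT fasted 1, WT fasted 2, WT refed 1 and WT refed 2, when 1.48%, 3.88%, 1.12% and 2.105% of all annotated genes had one. The members with one in both livers of a state were Foxo3, Hnf4a, Ppargc1a and Tat. Ppargc1a encodes the coactivator PGC-1α, and its summits scored 3.29, 22.2 and 7.15 in WT fasted 1, WT fasted 2 and WT refed 2. Hnf4a, the gene of a hepatocyte nuclear receptor, scored at most 7.77, 46.9 and 29.3. Tat, the tyrosine aminotransferase gene, held its summits in WT refed 1 (2.73) and WT refed 2 (20.2). Thus 3 of the 4 genes held distal summits in fasted livers as well as in WT refed 2, and Tat in refed livers. Foxo3 and Tat held no region found in several libraries, so their summits lay at different positions, and Hnf4a and Ppargc1a held 1 each.

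Fatty acid oxidation genes had 4, 8, 0 and 2 of 21 members with a distal summit inside, with Ppara, Acot3 and Cpt1a in both fasted livers. Ppara and Acot3 held no region found in several libraries, so their summits lay at different positions, and Cpt1a held 1. Ppara, the gene of the nuclear receptor that drives fatty acid oxidation, scored at most 5.21, 14.3 and 8.63 in WT fasted 1, WT fasted 2 and WT refed 2. Cpt1a, which encodes the enzyme of fatty acid entry into mitochondria, scored 5.21 and 19.6 in the fasted livers. Lipogenic genes had 2, 3, 0 and 2 of 24, and none in both livers of a state. Insulin and mTOR signalling genes had 0, 4, 0 and 1 of 15. Among 18 genes of H3K9 methylation enzymes, Prdm2 held a distal summit in WT fasted 1, WT fasted 2 and WT refed 2 (8.45, 53.0 and 17.4). A distal summit inside Jmjd1c itself was found in WT refed 2, in an intron 1656 bp from a start with a score of 5.24. These lists are small, and with members counted from single lists of positions no test was made.

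Gene families differed in where they stood against these shares of all genes. Serpin genes, which include abundant plasma protease inhibitors of hepatocytes, held distal summits in 6, 7, 1 and 6 of 65 members, and cytochrome P450 genes in 9, 7, 1 and 5 of 105. Major urinary protein genes, a cluster of near-identical copies, held them in 0, 11, 10 and 1 of 22. Olfactory receptor genes, silent in liver, held 0 of 1110 in every library, and Hox genes 0 of 43. No position inside a transcript of up to 1000 bp can be distal, so the rule itself puts genes that short at 0. How many members of each family are that short was not counted, and the part of length in these counts was not tested. Vomeronasal receptors had 0, 1, 2 and 0 of 357, zinc finger protein genes 4, 15, 4 and 9 of 403 (0.993%, 3.72%, 0.993% and 2.23%, near the shares of all genes), solute carriers 9, 26, 3 and 18 of 382 and Mir genes 0, 1, 0 and 1 of 1195. In WT refed 1 a single summit lay inside 13 overlapping clustered protocadherin genes, and the other libraries had none there. The Serpina1 and major urinary protein genes share reads among copies, so single members are uncertain.

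The RNA-seq of JMJD1C-LKO against WT refed livers was read for the host genes. Jmjd1c itself was at 4.37 and 4.62 TPM in the WT libraries and 3.86 and 4.14 TPM in the libraries labelled JMJD1C-LKO, a log2 fold change of -0.14 ± 0.08 (SE) with an edgeR adjusted p of 0.233. Both libraries labelled JMJD1C-LKO lay below both WT libraries, but by the adjusted p the count over the whole gene did not separate the genotypes. The paper reports lower Jmjd1c mRNA by RT-qPCR and no detectable protein in JMJD1C-LKO livers. For these RNA-seq libraries the directions that follow rest on the labels. Summed hepatocyte markers were at 131763 to 139472 TPM in the 4 libraries, against 0.233 to 1.004 for pancreas, 1218 to 2166 for red blood cells and 2.62 to 6.62 for lymphocytes. Macrophage markers were at 118 and 120 TPM in WT and 211 and 310 TPM in the libraries labelled JMJD1C-LKO, and endothelial markers at 26.7 and 28.6 against 36.6 and 51.7. Their part in the results was not tested.

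Of the 253 genes with a distal summit inside in both livers of a state, 236 were tested, and 48 were higher and 39 lower in JMJD1C-LKO at an edgeR adjusted p under 0.05, together 36.9%. Over all 14151 genes tested 28.0% were called, 14.6% higher and 13.4% lower. The median log2 fold change of the host genes was 0.01, and 0.01 over all genes. Without WT refed replicate 1 or 2 the host genes called fell to 34 and 28, where 8.72% and 7.36% of all genes were called. Genes with a distal summit inside in WT refed 1 were called in 29.3% of 167 tested.

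Among the higher host genes with the lowest p, Tat was at 424 and 378 TPM in WT and 1382 and 2116 TPM in JMJD1C-LKO, with a log2 fold change of 2.15 ± 0.16 (SE, adjusted p = 5.67e-05). Ppargc1a was at 2.33 and 2.41 TPM against 6.52 and 8.88 (1.72 ± 0.13, adjusted p = 5.4e-05). Upp2, a uridine phosphorylase gene, was at 140 and 132 TPM against 363 and 407. Gnmt, the gene of glycine N-methyltransferase, was at 1001 and 1150 TPM against 2490 and 2606, and Camk2b, a calmodulin-dependent kinase gene, at 2.29 and 2.15 against 6.34 and 8.08. Both JMJD1C-LKO libraries lay above both WT libraries in these 5 genes, which their choice by p favours. Tat and Camk2b had a summit in both livers of a state only through WT refed 1 (scores 2.73 and 4.60). Neither held a region found in several libraries.

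Among the lower genes, Inhbc, which encodes an inhibin subunit of hepatocytes, was at 153 and 151 TPM in WT and 70.9 and 62.2 TPM in JMJD1C-LKO, a log2 fold change of -1.16 ± 0.10 (SE, adjusted p = 9.8e-05). The cell cycle regulator gene E2f8 was at 5.37 and 5.72 TPM against 2.21 and 2.19, and Tbx3, a transcription factor gene, at 16.8 and 16.9 against 9.97 and 7.55. Ugt2b5, a glucuronosyltransferase gene with close paralogs, was at 925 and 885 TPM against 556 and 459, and Tmcc1 at 15.1 and 14.9 against 10.3 and 10.1. These genes were chosen by p, so that their groups do not overlap is no further result.

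Among the genes of the highest shared regions, Klf15 was at 101 and 94.5 TPM in WT and 148 and 179 TPM in JMJD1C-LKO (log2 fold change 0.78 ± 0.09, adjusted p = 0.000505), and Cidec at 7.27 and 6.59 against 14.996 and 23.9 (1.51 ± 0.18, adjusted p = 0.000524). Tns1 was also higher (0.59 ± 0.11, adjusted p = 0.00394) and Fndc3a lower (-0.30, adjusted p = 0.019), but both lost the call without WT refed replicate 2, and Fndc3a also without WT refed replicate 1. Ywhaz, Baz2a and Serpinc1 had adjusted p of 0.397, 0.0781 and 0.153. Of the gluconeogenic genes tested 12 of 14 were higher and 0 lower, of the fatty acid oxidation genes 3 of 21 were higher and 5 lower, and of the lipogenic genes 7 of 24 were higher and 5 lower, beside 14.6% higher and 13.4% lower over all genes. The fatty acid oxidation count of higher genes was near that share, and without WT refed replicate 1 or 2 the calls over all genes fell to 8.72% and 7.36%. Hnf4a had an adjusted p of 0.306 and Ppara of 0.0979, while Cpt1a was higher (0.58 ± 0.08, adjusted p = 0.00119) and Acot3 lower (-1.02 ± 0.18, adjusted p = 0.00316). Foxo3 was at 1.22 and 1.05 TPM in WT and 2.003 and 2.20 in JMJD1C-LKO (0.91 ± 0.15, adjusted p = 0.00239), with adjusted p of 0.0539 without WT refed replicate 2.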

How the data were processed

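H3K9me2 ChIP-seq (2 WT fasted, 2 WT refed livers), ATAC-seq (6 livers) and RNA-seq (4 libraries) were used. ChIP-seq reads were aligned by the authors with Bowtie2 (mm10). They kept uniquely located reads and called peaks per sample with MACS2 2.1.1 against input (q-value cutoff 0.05, 2.5-fold enrichment). They deposited summits with a score, the −log10 of the q-value, with no widths or read counts. The RNA-seq table deposited by the authors holds unscaled, estimated counts for each RefSeq transcript. Their table of fold changes and p-values was not used, and 0 sample columns were left unmapped. GEO's labels name the groups.

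Distances were taken to all NM and NR transcript starts of GRCm38.p6 (45756 transcripts, 26180 genes). Sequence was read within 100 bp of each summit. Positions were compared with windows every 2000 bp, or every 20000 bp for tandem runs. A 31-mer was counted on both strands of the assembly. Of 24994 transcripts 24682 had a length for TPM. Counts were summed per gene, rounded, filtered with filterByExpr and tested with edgeR 4.0.16 (quasi-likelihood, TMM, Benjamini-Hochberg), with library totals of 51265128 to 54400509. The code was tested on simulated data. Alternatives were DESeq2 1.42.0, other scaling and filters, other distances, annotations, score minimum, repeats left out, a replicate block and each library left out.

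Members, lists and tests were chosen with earlier results of these data known. Named regions were to be those in all 4 libraries by mean rank; as 0 existed, the 3 libraries WT fasted 1, WT fasted 2 and WT refed 2 were used instead, a choice made after the data were seen, as were the kinds of sequence printed. Also named were the 3 highest distal summits per library, the 8 genes with most regions in several libraries, the 5 smallest p per direction among host genes, and list members with a distal summit in both livers of a state (at most 5 a list). RNA-seq replicates share numbers only: deviations of same-numbered libraries from their group means correlated at -0.0046. With 2 libraries in each group both pairs must give the same value, so the pairs are not separate checks. RNA-seq libraries came from pooled RNA, so p-values measure the spread between pools.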

Additional observations from a re-analysis of the deposited data

Results flagged for a closer look

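Across the 4 WT H3K9me2 libraries, which span both states, WT refed 1 was farther from the others than Dixon's 95% critical value for 4 values (gap to the nearest over the whole range) in 5 measures of the distal summits. Their share of the library was 94.99% (gap over range 0.902), a value already known when these summits were chosen and given as a description only. Of them 75.2% were in repeats (0.986), 97.3% had a 31-mer found at several places (0.960), the median GC content was 43.8% (0.938) and the median distance to a start was 41831 bp (0.878). The measures share the same summits and are not independent, and chance alone would mark about 1 in 20 groups. That rate does not hold here, because WT refed 1 was already known to stand apart by its share of distal summits. The other measures are therefore also given as a description only. The share of island-like sites of 6.49% (0.816) and the share with an ATAC-seq summit of 18.8% (0.815) fell just short.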

How the results depend on the processing

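The share of summits away from starts moved by more than the spread between livers (SD) only in fasted livers with a limit of 500 bp (21.1%). In refed livers that spread was 60.4 around 52.3%, so no alternative could count as moved there. The refed share was 9.63% without WT refed 1 and 94.99% without WT refed 2. Leaving out 1 of 2 livers can never move a mean by more than their SD, so that check says nothing about stability. In fasted livers the share within transcripts became 47.5% with a limit of 2500 bp and 74.3% with predicted RefSeq models included, and the share with an ATAC-seq summit 8.38% within 500 bp. In refed livers the share with an ATAC-seq summit became 20.95% ± 28.6 (SD, n = 2) for scores of at least 5. It became 21.5% ± 29.6 (SD, n = 2) without sites with a multi-copy 31-mer, an alternative chosen after seeing the data like the GENCODE starts. Each SD exceeds its mean, so neither mean describes both livers. In WT refed 1 only 33 of the 1232 distal summits had a 31-mer in 1 place. Sharing between fasted livers moved by less than its spread under all 10 alternatives, at 46.3% for equal numbers of summits. That spread (27.0) lay between 322 of 613 and 319 of 2223 summits, the same pair of livers counted from each end. It was 0 for equal numbers, so staying within it says nothing about stability. Sharing between refed livers was 0 throughout, a floor that also says nothing about stability. Genes with a distal summit inside in both livers fell from 241 to 113 (fasted) and from 20 to 13 (refed) with 2500 bp, and in refed livers to 4 for scores of at least 5, 9 without repeats and 1 without multi-copy sites. Leaving out a liver leaves 1 list, with 387 to 1017 genes fasted and 292 to 551 refed. RNA-seq calls ranged from 1068 to 5180, and host genes called from 28 to 118, when a library was left out, and host genes called were 39 with 2500 bp. Without WT refed replicate 1 or 2 the RNA-seq calls were 1265 and 1068. The replicate block gave 4207 calls and 90 host genes called, and ended no named call. Of 24 named genes called, 16 were called under all 8 alternatives, 8 lost the call in at least 1, most often without a WT library, and 0 changed sign. Depth is unknown for the summit lists, and with 2 livers a state no test between states was made.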
